A study of Mus musculus with 3 samples.

Results

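Replication-dependent histone genes encode the linker histone H1 and the core histones H2A, H2B, H3 and H4 that package newly made DNA. The members were chosen by gene symbol: 64 of the 21887 protein-coding genes in the RefSeq table of the mouse assembly GRCm38.p6 (also called mm10) carry a matching symbol, namely 7 H1, 17 H2A, 16 H2B, 12 H3 and 12 H4 genes. Of these, 53 lie on chromosome 13, 10 on chromosome 3 and 1, H1f10, on chromosome 6. The family was picked for description because earlier results of these data had shown peaks at histone genes, so the presence of end peaks is a description and carries no test. Peaks came from CUT&Tag, a method in which Tn5 transposase, tethered through an antibody, cuts the DNA around the protein of interest. The material was wild-type mouse otocyst, the early vesicle that forms the inner ear, taken at E10.5. A pool of 34 otocysts gave 3 samples of 1 library each: one with an antibody to the chromatin remodeler CHD7, one with an antibody to the transcription factor SOX2, and one with no primary antibody, which is not analysed here. A pool of whole otocysts holds several cell types, and the labels give no sorting. The CHD7 list held 33035 peaks and the SOX2 list 155548.

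Replication-dependent histone genes are transcribed mainly in S phase. Most lack introns, and their mRNAs end in a conserved stem-loop in place of a poly(A) tail. They lie in clusters where H2A and H2B genes are often arranged in divergent pairs that share a promoter region, and the coactivator NPAT gathers at these clusters in histone locus bodies. A peak is said below to be at a gene end when it reaches within 1 kb of either border of the gene. The summed end signal of a gene thus includes peaks on neighbours that do not overlap the gene itself. The signal of a peak is the authors' coverage summed over its bases. It is used only within a list, because the sources used here do not give its scaling. With 1 library per antibody no value has a replicate error, and read depth is unknown.

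The promoters below, from RefSeq (GRCm38.p6), are the 250 bases before the annotated start of the 2 members with the highest CHD7 end signal (H2ac7 and H3c4), of the 2 with the highest SOX2 end signal (H2ac24 and H4c18), of H4c17, a near copy of H4c18 added after its values were seen, and of H2ac1, a member with neither peak. The promoter of H2bc1, the other member with neither peak, is mostly the opposite strand of the one shown for H2ac1. Printed 5′ to 3′ on the gene's own strand, capitals mark matches on either strand to the TATA box letters (TATAAA), the CCAAT box (CCAAT), the octamer (ATTTGCAT) and a pair of SOX core words (CATTGT or else CTTTGT).
H2ac7 (chr13:23574131-23574380, plus strand): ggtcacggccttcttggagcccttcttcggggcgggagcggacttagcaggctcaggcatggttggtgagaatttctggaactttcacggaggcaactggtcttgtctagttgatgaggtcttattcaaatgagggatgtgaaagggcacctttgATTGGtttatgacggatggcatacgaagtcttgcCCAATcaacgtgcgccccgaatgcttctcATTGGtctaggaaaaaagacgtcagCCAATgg
H3c4 (chr13:23575513-23575762, plus strand): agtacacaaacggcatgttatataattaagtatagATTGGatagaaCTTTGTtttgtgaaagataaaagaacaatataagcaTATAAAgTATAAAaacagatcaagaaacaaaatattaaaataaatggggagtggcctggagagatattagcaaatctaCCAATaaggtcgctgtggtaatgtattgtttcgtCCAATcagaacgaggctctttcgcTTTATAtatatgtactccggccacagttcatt
H2ac24 (chr13:21833476-21833725, minus strand): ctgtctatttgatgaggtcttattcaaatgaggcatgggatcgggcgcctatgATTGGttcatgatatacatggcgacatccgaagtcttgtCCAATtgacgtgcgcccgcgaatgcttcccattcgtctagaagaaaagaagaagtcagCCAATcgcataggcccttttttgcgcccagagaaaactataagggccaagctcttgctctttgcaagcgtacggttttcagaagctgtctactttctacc
H4c18 (chr13:21832198-21832447, minus strand): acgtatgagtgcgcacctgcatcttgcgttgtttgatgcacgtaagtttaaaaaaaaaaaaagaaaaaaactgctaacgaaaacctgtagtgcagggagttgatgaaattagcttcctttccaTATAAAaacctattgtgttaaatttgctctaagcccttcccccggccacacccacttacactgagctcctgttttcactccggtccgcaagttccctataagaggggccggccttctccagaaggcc
H4c17 (chr13:21811496-21811745, plus strand): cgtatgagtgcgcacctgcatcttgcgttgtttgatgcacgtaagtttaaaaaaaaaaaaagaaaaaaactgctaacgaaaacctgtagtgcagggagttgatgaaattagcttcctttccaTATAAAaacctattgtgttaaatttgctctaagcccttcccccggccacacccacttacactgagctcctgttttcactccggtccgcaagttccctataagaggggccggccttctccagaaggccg
H2ac1 (chr13:23934187-23934436, plus strand): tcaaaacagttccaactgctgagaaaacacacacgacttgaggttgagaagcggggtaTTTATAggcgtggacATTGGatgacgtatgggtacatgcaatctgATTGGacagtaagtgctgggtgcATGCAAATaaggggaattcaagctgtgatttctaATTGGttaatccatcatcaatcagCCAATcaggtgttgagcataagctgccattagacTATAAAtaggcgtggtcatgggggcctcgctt

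Nearly all histone genes carried peaks of both lists at an end. A CHD7 peak was at 61 of 64 members, or 95.3% (exact 95% binomial interval 86.9% to 99.0%), against 30.8% of all protein-coding genes. A SOX2 peak was at 59 of 64, or 92.2% (82.7% to 97.4%), against 59.7% of all protein-coding genes. Both were at 58 of 64, or 90.6% (80.7% to 96.5%), against 28.3%. Histone genes are short, with a median length of 492.5 bases, so they were also set beside 548 other protein-coding genes of at most 1000 bases, leaving out olfactory and vomeronasal receptor genes. Among these short genes 6.39% had a CHD7 end peak, 19.5% a SOX2 end peak and 6.2% both. The intervals cover counting error only, and they treat members as separate although neighbours share peaks: the 61 members rest on 43 distinct CHD7 peaks, and the 59 on 60 distinct SOX2 peaks. A peak overlapped the gene body itself at 57 members in the CHD7 list and at 57 in the SOX2 list.

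**Figure D1:**
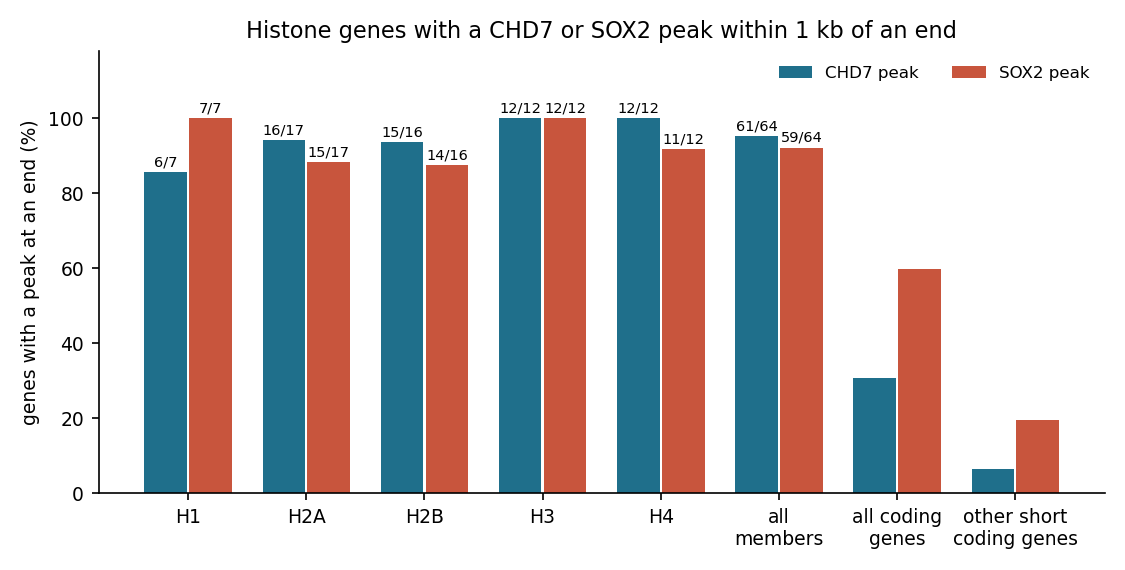
Share of genes (%) with a peak within 1 kb of an end, by histone class, for all 64 members, for all protein-coding genes and for the 548 other short genes; numbers above bars are genes with a peak over genes in the class. The lowest histone bar is 85.7% (H1, CHD7), against 30.8% (CHD7) and 59.7% (SOX2) of all coding genes.

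The 3 members without a CHD7 end peak were H2ac1, H2bc1 and H1f10. H2ac1 and H2bc1 encode the testis histones also called TH2A and TH2B. They lay at the far edge of the second chromosome 13 cluster with neither peak at an end: the nearest CHD7 peak was 22037 bases from H2ac1 and 21325 bases from H2bc1, and the nearest SOX2 peak was 2138 and 2895 bases away. H1f10 encodes the linker variant H1X, which is made throughout the cell cycle and matches the symbol rule without being a replication-dependent gene. It had SOX2 peaks at its ends with a summed signal of 5806, and the nearest CHD7 peak was 3621 bases away. H1f6, the testis linker histone gene, counted as having both, but its peaks did not reach the gene: the CHD7 peak was 706 bases and the SOX2 peak 956 bases from its border, and both lay on its neighbour H4c3. Without the 3 testis genes, a CHD7 peak was at 60 of 61 members.

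By class, the H2A genes had the highest median summed signal in both lists, and the H1 and H4 genes the lowest medians. The median summed CHD7 end signal of members with a peak was 3286 for H2A, 2496 for H2B, 2086 for H3, 1277 for H1 and 1129 for H4. For comparison, the median over all 6742 protein-coding genes with a CHD7 end peak was 797. In the SOX2 list the medians were 9911 for H2A, 8533 for H3, 7081 for H2B, 4809 for H4 and 4281 for H1, against 2053 over all 13069 genes with a SOX2 end peak. Classes overlapped in both lists, and genes of different classes often shared a peak, so their order was not tested. The order changed when each distinct peak of a class was counted once. The median CHD7 peak was then highest for H2B (2286, against 2118 for H2A) and still lowest for H1 (1211) and H4 (1139). The median SOX2 peak was still highest for H2A (5425) but lowest for H3 (2434), below H1 (2786), H2B (4047) and H4 (4692). Over all members with a peak the CHD7 signal ran from 478 at H1f2 to 7132 at H2ac7 and H3c4, and the SOX2 signal from 821 at H2bc21 to 25481 at H4c18 and H2ac24.

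**Figure D2:**
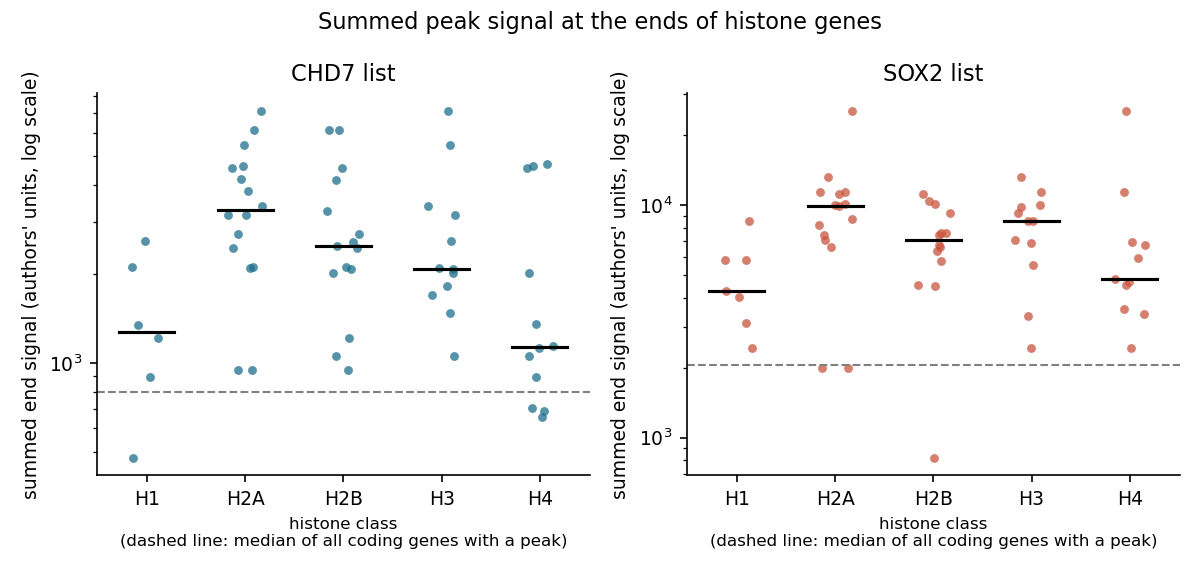
Summed total signal of the peaks at each histone gene's ends (log axis, authors' units), by histone class; each point is a gene with a peak and black lines are class medians. The 2 panels have separate scales because signal cannot be compared between lists; most points lie above the dashed medians of 797 (CHD7) and 2053 (SOX2).

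Among the core histones, the strongest CHD7 place was a run of 5 genes on chromosome 13. One CHD7 peak of 4650 bases, at chr13:23570701-23575350, reached the ends of H2ac8, H2bc8, H2bc7, H2ac7 and H3c4. Its total signal of 6126 was rank 239 of 33035, which placed it in the strongest 1% of the list. The SOX2 list had 2 peaks under it, at chr13:23570551-23572050 (signal 6598) and at chr13:23573101-23575000 (signal 10410). H2ac7 and H3c4 also counted a second CHD7 peak with a signal of 1007, which gave them their sum of 7132. Of the 2 CHD7 peaks only the second overlapped H3c4, and the SOX2 peak on H3c4 had a signal of 997. H3c10 followed among the H3 genes with a summed CHD7 signal of 5470 and a SOX2 signal of 9852. Of these sums, 4163 and 6803 came from peaks over H2bc13 and H2ac13 that did not overlap H3c10. The peaks on H3c10 itself had 1307 for CHD7 and 1935 for SOX2. H3c15, on chromosome 3, had the highest SOX2 signal of the H3 genes, 13195, with a CHD7 signal of 3165.

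Among the H4 genes, H4c18 had the highest signals in both lists, 4723 for CHD7 and 25481 for SOX2. H4c9 came second in both, with 4650 and 11406. Of these sums, 3275 and 6070 came from peaks at H2ac11 and H2bc11 that did not overlap H4c9. The peaks on H4c9 itself had 1375 for CHD7 and 5337 for SOX2. The lowest CHD7 signal of an H4 gene, 656, was at H4c4, whose SOX2 signal was 4809. Among the H2B genes, H2bc7 and H2bc8 led the CHD7 list through the peak they share, and H2bc22 led the SOX2 list with 11143, beside a CHD7 signal of 2118. Among the H1 genes, H1f1 led with 2591 for CHD7 and 8533 for SOX2. Of these sums, 2022 and 6158 came from peaks over its neighbours H4c1 and H3c1 that did not overlap H1f1. The peaks on H1f1 itself had 569 for CHD7 and 2375 for SOX2. H1f5 was second for CHD7, with 2118, beside a SOX2 signal of 3108. H1f2 stood at the other end: its CHD7 peak, with a signal of 478 near the list's lowest value of 433, began 70 bases beyond the gene, while its SOX2 signal was 4281. H1f2 encodes one of the somatic linker histones, as do H1f3 (CHD7 1344, SOX2 5806) and H1f4 (1211 and 4047).

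Weak members were found beside strong ones. On chromosome 3 the H2A genes H2ac20 and H2ac21 and the H2B gene H2bc21 shared one CHD7 peak of signal 947. The SOX2 signal was 1994 at H2ac20 and H2ac21, whose bodies no SOX2 peak reached, and 821 at H2bc21. These were the lowest signals of the H2A class and, for H2bc21, of the H2B class, in both lists. Further along the same cluster stood H3c15, H2ac19, H2ac18 and H3c14, among the strongest members. H4c6 and H4c2, for H4, were low for CHD7 alone, with 701 and 688, and the CHD7 peak of H4c6 began 433 bases beyond the gene. Their SOX2 signals were 4692 and 6715, beside an H4 median of 4809.

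Histone peaks were wide and ranked high within their lists. The 43 CHD7 peaks at members had a median width of 1600 bases and a median total signal of 1344, against 1100 bases and 729 for the 6006 other CHD7 peaks at gene ends. Of these 43 peaks 18, or 41.9%, were among the strongest 10% of the CHD7 list, against 11.8% of all CHD7 peaks at gene ends. The 60 SOX2 peaks at members had a median width of 1075 bases and a median total signal of 3050, against 800 bases and 1320 for the 15243 other SOX2 peaks at gene ends. In the strongest 10% of the SOX2 list were 41 of the 60, or 68.3%, against 29.1% of all SOX2 peaks at gene ends. Total signal grows with width. By the highest signal within the peak, which does not sum over width, 9 of 43 CHD7 peaks (20.9%) and 37 of 60 SOX2 peaks (61.7%) were in the top 10%, against 8.39% and 22.1% of the other gene-end peaks.

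CHD7 and SOX2 peaks at histone genes mostly coincided, as did most CHD7 peaks at all gene ends. Of the 43 CHD7 peaks 40 shared at least 1 base with a SOX2 peak, or 93.0% (exact 95% interval 80.9% to 98.5%), against 85.7% of all CHD7 peaks at gene ends. Of the 60 SOX2 peaks 46 shared a base with a CHD7 peak, or 76.7% (64.0% to 86.6%), against 35% of all SOX2 peaks at gene ends. Both intervals cover counting error only and treat neighbouring peaks of 1 library as separate. The family was picked with its peaks known, so neither share was tested against that of all gene-end peaks. The 3 CHD7 peaks without SOX2 were 2 at the genes H2bc23, H2ac23 and H4c17, described below, and a weak one at H2ac12 (signal 592). Across the 40 shared CHD7 peaks the total signals of both lists had a Spearman rank correlation of 0.61 and a Pearson correlation of log2 signals of 0.54, beside 0.53 and 0.59 across all 5182 shared CHD7 peaks at gene ends. The order of members and all gene-end peaks thus differed between the measures. These are correlations across peaks of 1 library each, where wide peaks have more signal in both.

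Among members with an annotated start, 9 divergent pairs of an H2A and an H2B gene had start sites 164 to 281 bases apart. H2bc4 and H2bc21 had no annotated start and could not be paired. Of the 9 pairs, 8 had a CHD7 peak that spanned both start sites and 7 also had a SOX2 peak that did. With median widths of 1600 and 1075 bases, a peak at one of these starts nearly always covers the other, so this is a description of the layout. The pairs were H2bc13 with H2ac13, H2ac15 with H2bc15, H2ac22 with H2bc22, H2ac12 with H2bc12, H2ac11 with H2bc11, H2ac8 with H2bc8, H2bc7 with H2ac7, H2bc23 with H2ac23 (CHD7 without SOX2) and the testis pair H2bc1 with H2ac1 (neither). The strongest CHD7 peaks at such pairs were the one over H2ac8, H2bc8, H2bc7 and H2ac7 and one over H2bc13 and H2ac13 (signal 4163, at chr13:21714851-21717300). Each CHD7 peak reached 1 member in 16 cases, 2 members in 20, 3 in 6 and 5 in 1, and each SOX2 peak 1 member in 30 cases, 2 in 25 and 3 in 5.

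The position of the peak maxima was measured from the start sites. The centre of the maximum-signal region was a median of 81.5 bases downstream of the nearest annotated histone start for CHD7 (interquartile range -304 to 297, 43 peaks) and 77.5 bases downstream for SOX2 (-246 to 322, 60 peaks). Within 500 bases of a start were 33 of 43 CHD7 and 38 of 60 SOX2 maxima. H4c14, H3c7, H3c1, H2bc4 and H2bc21 had no annotated start, so peaks on them were measured to a neighbour's start. The peaks over H4c14 thus stand at -6328.5 (CHD7) and -5578.5 (SOX2) bases from H3c13, and do not show maxima far upstream of their own gene. The peaks were taken for lying near these short genes, which largely sets these distances. Since most of the genes are shorter than a peak, the start and the end of a gene cannot be told apart by the windows alone. H2bc6, annotated as a model of 37455 bases, has a second start site inside it, at position 23585970 of chromosome 13. A CHD7 peak of signal 952 and a SOX2 peak of signal 4281 lay there as well and were not counted as end peaks.

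**Figure D3:**
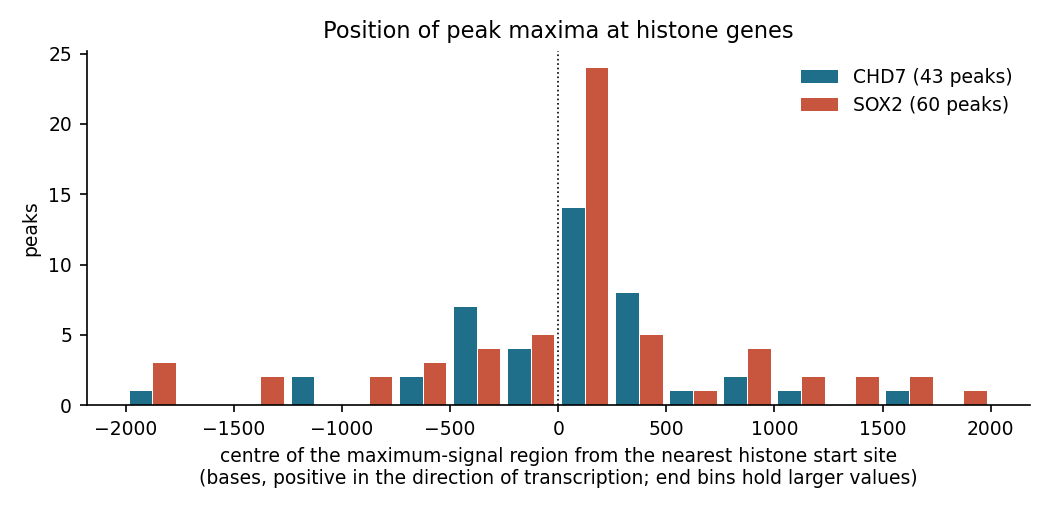
Distance in bases of the centre of each peak's maximum-signal region from the nearest annotated histone start site, positive in the direction of transcription, for 43 CHD7 and 60 SOX2 peaks at members; bars count peaks in bins of 250 bases. Both lists have their tallest bar in the first bin downstream of the start. Peaks on members without an annotated start, such as H4c14, were measured to a neighbour's start.

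Members within 500 kb of each other formed 3 clusters. The first on chromosome 13 (chr13:21715711-22043658) held 22 members, the second (chr13:23531044-23934913) 31, and the one on chromosome 3 (chr3:96219885-96270192) 10. Together the clusters spanned 782 kb and held 63 CHD7 peaks, or 8.05 per 100 kb, against 1.21 per 100 kb over the assembled chromosomes. They held 110 SOX2 peaks, or 14.1 per 100 kb, against 5.69 per 100 kb. The spans were set by the members, and 43 of the CHD7 and 54 of the SOX2 peaks are the member-end peaks described above. The densities thus partly restate those counts. The stretch of 1487 kb between the clusters of chromosome 13 held 37 CHD7 peaks (2.49 per 100 kb) and 104 SOX2 peaks (6.99 per 100 kb).

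Inside the clusters both lists had peaks at member ends and away from them. At member ends were 43 of the 63 CHD7 peaks, or 68.3%, with 80.5% of the CHD7 signal in the clusters, and 54 of the 110 SOX2 peaks, or 49.1%, with 75.2% of the SOX2 signal; 4 further SOX2 peaks at member ends lay just outside the spans. The end windows of members took up 12.3% of the first chromosome 13 cluster, 15.6% of the second and 33.5% of the chromosome 3 cluster. In these 3 clusters 17 of 29, 21 of 29 and 5 of 5 CHD7 peaks were at member ends. For SOX2 the counts were 16 of 52, 32 of 51 and 6 of 7. Peaks away from member ends, some of them inside long gene models such as H2bc6, had lower medians. In the first chromosome 13 cluster the median CHD7 signal was 2118 at member ends and 669 elsewhere. The median SOX2 signal there was 4750 at member ends and 1173 elsewhere. In the second cluster the medians were 1125 and 934 for CHD7, and 2727 and 938 for SOX2. Of the 63 CHD7 peaks in the clusters 54 overlapped a SOX2 peak. This share is above the 65.3% of all CHD7 peaks but like the 85.7% of those at gene ends.

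**Figure D4:**
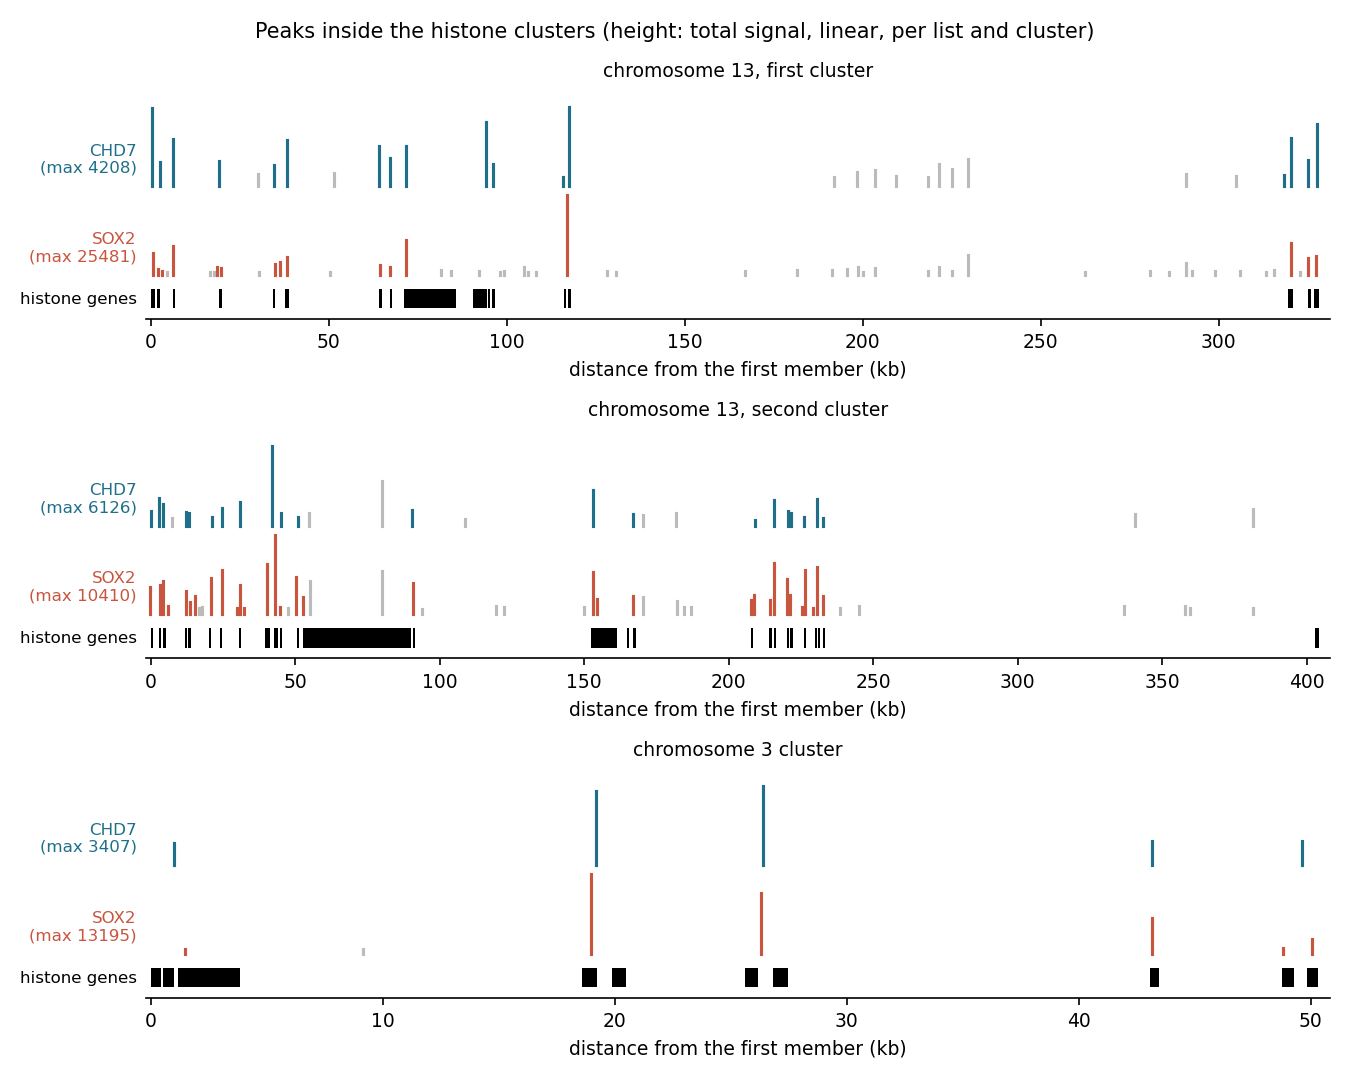
Peaks and histone genes along the 3 clusters, as distance in kb from the first member; the height of each line is the peak's total signal on a linear scale set separately for each list and cluster (highest value given at the left), coloured lines are at member ends, grey lines are elsewhere, and black boxes are member genes. The tallest line of each list and cluster stands at a histone gene; grey lines of some height include a pair in the second cluster (CHD7 3475, SOX2 5659) inside the long H2bc6 model.

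The strongest peaks of each cluster were mostly at histone genes. In the first chromosome 13 cluster the top CHD7 peaks had signals of 4208 (H4c18 and H2ac24), 4163 (H2bc13, H2ac13 and H3c10) and 3379 (H2bc23, H2ac23 and H4c17). The top SOX2 peaks there had signals of 25481 (H4c18 and H2ac24), 11143 (H2ac22 and H2bc22) and 10146 (H2ac12 and H2bc12). In the second cluster, after the 5-gene peak, came a CHD7 peak of signal 3475 away from member ends and one of 2728 at H2ac6 and H2bc4. The top SOX2 peaks of the second cluster had signals of 10410 (H2bc7, H2ac7 and H3c4), 6715 (H3c3 and H2bc3) and 6598 (H2ac8 and H2bc8). On chromosome 3 the top CHD7 peaks had signals of 3407 (H2ac18 and H3c14) and 3165 (H3c15 and H2ac19), and the same gene pairs had the top SOX2 peaks, with 10028 and 13195. H4c14 had a SOX2 signal of 5952 and a CHD7 signal of 1057 there.

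Of the 10 other protein-coding genes in the spans, 3 had a CHD7 and 5 a SOX2 end peak, near the 30.8% and 59.7% of all protein-coding genes. One of them, H4bc24, is itself a histone gene under an older name (Hist1h2br). Zfp184, a zinc finger gene, and Hfe, the hemochromatosis gene of iron metabolism, had both. Prss16 and Slc17a1 had SOX2 alone. Trim38, Slc17a2, Slc17a3, Slc17a4 and Pom121l2 had neither. The first chromosome 13 cluster also contains 31 transfer RNA genes. Of its 12 CHD7 peaks away from member ends 8 lay within 1 kb of one, as did 15 of its 36 such SOX2 peaks. The share of the cluster within 1 kb of these genes was not measured, so an association with them was not tested.

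SOX2 differed between near-identical gene copies on chromosome 13. The genes H2bc23, H2ac23 and H4c17 form one copy, and H4bc24, H2ac24 and H4c18 the other, in opposite orientation. Around the start sites 300 of 300 bases were identical between H2bc23 and H4bc24, 298 of 299 aligned bases between H4c17 and H4c18 (their promoters are printed above), and 200 of 200 between H2ac23 and H2ac24. CHD7 was at both copies, with peaks of signal 3379 and 1180 at H2bc23, H2ac23 and H4c17, and of 4208 and 515 at H4c18 and H2ac24. The end peak of SOX2 was at 1 copy: the peak at chr13:21830751-21834900, over H4c18 and H2ac24, had a signal of 25481 and was rank 85 of 155548, and no SOX2 peak was at an end of H2bc23, H2ac23 or H4c17. The nearest SOX2 peak was 1551 bases from H4c17 and 2017 bases from H2ac23, and a weak one (signal 1056, at chr13:21807751-21808350) lay inside the H2bc23 model of 3788 bases. The sources used here do not say how reads that match several places were handled, and the part of this in the difference was not tested.

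Other near copies carried end peaks of both lists. On chromosome 3, H3c15 and H3c14 had 284 identical of 285 aligned bases around their starts, and their neighbours H2ac19 and H2ac18 had 246 of 249. The CHD7 signal was 3165 over H3c15 and H2ac19 and 3407 over H3c14 and H2ac18, and the SOX2 signal 13195 and 10028. On chromosome 13, H4c11 and H4c12 had 273 identical of 284 aligned bases. The CHD7 signal was 1353 at H4c11 and 1120 at H4c12, and the SOX2 signal 4545 and 3401. In all, 16 of 63 histone genes with a promoter in the table aligned to another over at least 150 of 300 bases, with identities from 79.0% to 100%. How well reads can be placed between these copies was not tested.

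CCAAT, TATA and octamer letters were found in a larger share of histone promoters than of promoters at large. In the 250 bases before the start, on either strand, CCAAT was found in 49 of 60 member promoters (81.7%), against 33.8% of 32851 promoters of the table. It was in 17 of 17 H2A and 15 of 15 H2B promoters and in 3 of 11 H4 promoters. TATAAA was in 28 of 60 (46.7%), against 12.4%. The octamer ATTTGCAT, the site of OCT factors known from H2B genes, was in 7 of 15 H2B and 6 of 17 H2A promoters and in no H1, H3 or H4 promoter, against 1.60% of all promoters. AAACACA, an element known from H1 genes, was in 5 of 7 H1 promoters, against 6.25%. Of the core letters that SOX proteins can recognise, CATTGT was in 2 of 60 member promoters (3.33%), against 10.7%, and CTTTGT in 10 of 60 (16.7%), against 16.5%. The E2F letters (TTTGGCGC or else TTTCCCGC) were in 1 of 60, against 1.30%. None of these words contains another, though matches can share bases. Divergent genes share promoter bases and are counted once for each gene.

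Base composition varied between the classes. The member median was 44.8% GC with 9.5 CpG dinucleotides in 250 bases, against 52.4% and 6 for all promoters of the table. The H1 median was 52.4% GC and the H3 median 6 CpG, both equal to all promoters, and the upper quartile of CpG was 14 for members and 16 for all promoters. H2ac1, with no peak, had 44.8% GC and 6 CpG, and H1f10, without CHD7, had 75.2% GC and 30 CpG. Both fell within the range of the other members for CpG, which ran from 2 to 34.

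Histone genes known by other symbols also had both peaks. Chromosome 11 holds no gene that fits the symbol rule, but 2 genes whose older names begin with Hist3 lie there: H2bu2 (signals 528 for CHD7 and 3108 for SOX2) and H2aw (1562 and 3108). H4f16 on chromosome 6, formerly Hist4h4, had 1025 and 2111, and H4bc24 shares the peaks of H2ac24.

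Genes for histone variants, many of them made outside S phase too, carried CHD7 at 5 of 11 and SOX2 at 9 of 11, H1f10 included, beside 30.8% and 59.7% of all protein-coding genes. With so few genes these shares were not tested. H2az1 and H2az2, for the variant H2A.Z, H2ax, for the variant phosphorylated at DNA breaks, H2aj and H3f3a had both. H2az1 had the highest CHD7 signal of these, 2897, with a SOX2 signal of 5425. H3f3b, the other H3.3 gene, and Cenpa, for the centromeric H3 variant, had neither at an end. Genes that drive histone transcription or process histone mRNA carried CHD7 at 10 of 17 and SOX2 at 15 of 17, beside the same 30.8% and 59.7%. Npat, the coactivator gene, had a CHD7 signal of 1321 and a SOX2 signal of 5131. Slbp, for the protein that binds the histone mRNA stem-loop, had 1084 and 4692, and Casp8ap2, for the histone locus body protein FLASH, had 724 and 2053. Lsm10 and Cstf2, for proteins of histone pre-mRNA processing, had neither, and Lsm11, for a U7 snRNP protein, had SOX2 alone with 1642.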

How the data were processed

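Accutase-treated otocyst cells were profiled by CUT&Tag with paired-end Illumina sequencing, per the labels' protocols. Per the submitters' processing notes, Bowtie2, deepTools and SEACR were used with build mm10; no source used here gives versions, settings, scaling or the use of the control. The deposited peak lists, 1 for each antibody, give 2 coverage signal values per peak: the sum over its bases and its maximum. Depth is not in the lists, so precision is that of the number of peaks or genes.

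Each peak was counted once. Members were protein-coding RefSeq genes of GRCm38.p6 with a symbol of the H1f1 to H1f6, H2ac, H2bc, H3c or H4c series, which by its pattern also takes H1f10; 59 had a strand and promoter. Members and context lists were chosen with earlier results of these data known. The named genes were the 2 members of each class with the highest CHD7 and the 2 with the highest SOX2 signal, up to 2 with neither, members outside clusters, testis genes, the 3 strongest peaks of each cluster and list, and the context lists; promoter motifs, copies and genes such as H1f2 were added after values were seen. Clusters joined members at gaps up to 500 kb. The genome length was the sum over chromosomes of the last peak position. Intervals are exact binomial (Clopper-Pearson) at 95%. Promoters were aligned with Biopython 1.88. Counting was tested on simulated data. Tools were scipy 1.17.1, matplotlib 3.10.9, numpy 2.4.6, Python 3.11.15 and pandas 2.3.3. Alternatives changed the window, the peak set, the peak region, the members and the joining distance.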

Additional observations from a re-analysis of the deposited data

How the results depend on the processing

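Of 74 recomputed values for 8 counts, 69 stayed within 1.5 times the reported count. This share was partly fixed beforehand. The gene counts are close to the number of members and could not rise that far, and some alternatives changed few members. Members with a CHD7 end peak ranged from 55 of 59 (annotated start sites only) and 56 of 64 (maximum-signal region) to 61 of 64 (window of 2 kb), or 65 of 68 with genes of older names, an alternative added after seeing the data, as was counting peaks on the gene body. With the 10000 strongest peaks of each list, 57 of 64 members had CHD7 (13.4% of all coding genes), 49 SOX2 (17.1%) and 45 both (9.17%); the distinct SOX2 peaks at members fell to 31, SOX2 peaks in the clusters to 35 and CHD7 peaks there that overlapped SOX2 to 28. That setting leaves fewer peaks by construction. Joining members at gaps up to 3 Mb merged the chromosome 13 clusters and gave 98 CHD7 and 212 SOX2 peaks. No paired analysis was possible because each antibody has 1 library and the labels give no replicate numbers; for the same reason no replicate could be left out. Unknown depth limits any statement that a peak is absent.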

Other observations

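The strongest CHD7 peak in the clusters away from a member end lay in the second chromosome 13 cluster, inside the long annotated model of H2bc6. The CHD7 peak at chr13:23610751-23611600 had a total signal of 3475 and rank 644 of 33035, and the SOX2 peak at chr13:23610601-23611600 had 5659 and rank 1840 of 155548. No promoter of the RefSeq table lies at this place. The strongest SOX2 peak away from a member end lay in the first cluster, at chr13:21944701-21946000, with a signal of 6216 and rank 1513, over a CHD7 peak of signal 1426.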
